A study of Mus musculus with 7 samples.

Results

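The 37 genes of the mouse mitochondrial genome were read out of poly(A)-selected RNA-seq of tumour-infiltrating CD8 T cells. They were chosen as the genes of the deposited table whose name begins with mt-, which are 37 of 55357 genes. Of these, 13 are messenger RNA (mRNA) genes, 2 are ribosomal RNA (rRNA) genes and 22 are transfer RNA (tRNA) genes. The cells had been sorted as live CD45+ CD8+ cells from subcutaneous MCA205 tumours, harvested on day 14, and at least 30000 cells were collected per condition. MCA205 is a transplantable mouse fibrosarcoma line. The hosts were ENT1KO mice (Slc29a1-/-, 4 samples, replicates 11, 12, 14 and 15) or C57Bl/6 WT mice (3 samples, replicates 1, 2 and 3). The knockout is carried by the whole host, and the same implanted tumour line is named for both groups. The sources used here give neither the deleted part of Slc29a1 nor the age of the animals. Whether every sample comes from its own animal is not stated in the labels, and p-values therefore measure only the spread between these samples. Values per library follow the order 11, 12, 14, 15 for ENT1KO and 1, 2, 3 for WT.

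Slc29a1 encodes ENT1, an equilibrative carrier of adenosine and other nucleosides, and the study asked how its loss in the host changes T cells in the tumour. The mitochondrial genome is a small circle that is transcribed from both strands into long precursor RNAs, one from the heavy-strand promoter and one from the light-strand promoter. The tRNAs lie between the other genes and are cut out of the precursor, which frees the mRNAs and rRNAs, and most of the mRNAs then receive a short poly(A) tail. The mRNAs encode core subunits of respiratory complexes I, III and IV and of the ATP synthase (complex V), whose other subunits, like the polymerase and the translation factors of the organelle, come from nuclear genes. Activated CD8 T cells are known to expand their mitochondria. In these annotations 28 of the 37 genes read from the heavy-strand promoter, while mt-Nd6 and 8 tRNAs read from the light-strand promoter.

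A stretch of 4653 bases of the mitochondrial genome, positions 6390 to 11042, also lies in the nuclear genome on chromosome 1. There it is annotated as 7 separate genes, in the same order, between 24650616 and 24655278 (GRCm39, as deposited), and the letters of members and copies set how reads can be divided between them. Sequences below are from GENCODE M21 transcripts (GRCm38), where all 37 members have the same mitochondrial coordinates as in the deposited table. The first pair is the start of mt-Nd3 (positions 9459 to 9806, complex I) and of its copy Gm28438. Capitals mark the substitution T3C, counted from 1 at the 5′ end of mt-Nd3, which is the single difference over 345 aligned bases.
mt-Nd3: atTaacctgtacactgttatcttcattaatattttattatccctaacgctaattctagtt
Gm28438: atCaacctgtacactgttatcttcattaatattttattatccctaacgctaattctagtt
The next pair is from mt-Co1 (positions 5328 to 6872, complex IV), bases 1063 to 1122, and its copy Gm29216. It carries A1066T, the single difference over 483 aligned bases, and the other 1062 bases of mt-Co1 have no counterpart in this copy.
mt-Co1: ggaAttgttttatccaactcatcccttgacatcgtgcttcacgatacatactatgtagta
Gm29216: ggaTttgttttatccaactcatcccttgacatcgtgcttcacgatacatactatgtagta
A contrasting pair is mt-Cytb (positions 14145 to 15288, complex III), bases 542 to 601 at the middle of the alignment, and Gm11410, a nuclear look-alike outside that stretch. It has 81 mismatches over 1142 aligned bases, and capitals mark the 4 that fall in this window.
mt-Cytb: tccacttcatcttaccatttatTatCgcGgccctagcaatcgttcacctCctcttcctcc
Gm11410: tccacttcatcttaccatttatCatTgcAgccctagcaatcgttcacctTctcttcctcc
For mt-Co2 (positions 7013 to 7696) 681 aligned bases were identical to the copy Gm28661, for mt-Atp6 (7927 to 8607) 678 were identical to Gm10925, for mt-Co3 (8607 to 9390) 783 to Gm28437, for mt-Nd4l (9877 to 10173) 294 to Gm10222, and for mt-Nd4 (10167 to 11544) 876 to Gm28439. The share of 100-base windows of a member that also occur in a nuclear transcript was 97.6% to 99.9% for mt-Co2, mt-Atp6, mt-Co3, mt-Nd3 and mt-Nd4l. It was 60.8% for mt-Nd4, 30.8% for mt-Co1, 3.19% for mt-Nd2 and 0 for the other mRNAs and both rRNAs. The whole of mt-Atp8 (positions 7766 to 7969) is shown because it is the member with the highest TPM. Capitals mark the 43 bases it shares with mt-Atp6, where both genes are read from one RNA in different frames.
mt-Atp8: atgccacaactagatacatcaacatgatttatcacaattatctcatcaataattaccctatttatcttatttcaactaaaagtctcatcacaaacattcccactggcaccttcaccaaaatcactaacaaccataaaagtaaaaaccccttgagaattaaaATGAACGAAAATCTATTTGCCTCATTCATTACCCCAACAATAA
The other 161 bases of mt-Atp8 match no annotated nuclear transcript, but they fall between 2 annotated copies, Gm28661 and Gm10925, which are 233 bases apart on chromosome 1 as their counterparts are on the mitochondrial genome. The letters of that nuclear interval were not used here.

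As a check of the labels, Slc29a1 had 13.6, 13.2, 17.6 and 15 TPM in the ENT1KO libraries, against 51.0, 58.9 and 49.7 TPM in the WT libraries. TPM is a length-corrected share of the transcripts of each library. The groups did not overlap (log2 difference -1.78, SE 0.13, limma-trend adjusted p = 0.00121). Libraries held 18624318 to 19660792 reads assigned to genes. The libraries of the groups also differed in markers of other cells. All 12 CD8 T cell markers were higher in ENT1KO, with a summed level of 8636 to 10689.8 TPM in ENT1KO and 2713 to 6517 TPM in WT. All 14 tested fibroblast and tumour markers of 15 listed were lower, at 6.57 to 881 TPM in ENT1KO and 4226 to 8024 TPM in WT, and Col5a1, Col6a1, Mgp and Lum were at 0 in ENT1KO replicate 15, Lum also in replicate 12. All 12 macrophage markers (112 to 1286 against 3387 to 5077 TPM), 5 of 5 tested neutrophil markers of 6 (2.7 to 13.2 against 96.7 to 117 TPM) and 5 of 5 erythroid markers (57.7 to 239 against 697 to 1966 TPM) were lower too. Retnlg was at 0 in ENT1KO replicate 12. Of 6 endothelial markers 5 were tested, 4 lower and 1 higher, and Tie1 was at 0 in ENT1KO replicate 15. Of 6 B cell markers 2 were tested, both higher. The part of these other cells in the mitochondrial results below was not tested, and in bulk samples fewer cells of a type and less RNA per cell cannot be told apart.

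Mitochondrial mRNAs and rRNAs were lower in the ENT1KO libraries. Of the 15 members that passed the filter of at least 1 TPM in at least 3 samples, 13 fell and none rose, where 23.1% of the 13798 tested genes were called lower and 27.5% higher (limma-trend on log2(TPM + 1), adjusted p under 0.05). The 15 are all 13 mRNAs, of which 11 fell, and both rRNAs. Neither of the 2 that missed the threshold, mt-Atp6 (adjusted p = 0.0904) and mt-Nd3 (adjusted p = 0.708), was above WT in its fitted difference. For mt-Nd3 that sign rested on a value of 0 in ENT1KO replicate 11, and its mean TPM was 69.6 in ENT1KO and 56.7 in WT. Without WT replicate 1, or without WT replicate 2, 8 members passed the threshold, all lower. In these refits 2805 and 2525 of the 13798 genes were called lower, against 3182 with all libraries. The median log2 difference of the 15 was -0.87, against 0.15 for all tested genes. For 9 of the 15, every ENT1KO library lay below every WT library, which held for 24.9% of all tested genes. The 13 mRNAs together made 41204 to 54673 TPM in ENT1KO and 78339 to 125814 TPM in WT, with means of 47329 ± 5739 (SD, n = 4) and 109518 ± 27011 TPM (SD, n = 3). The WT mean was 2.31 times the ENT1KO mean, and WT replicate 3 was the lowest WT library while ENT1KO replicate 14 was the highest ENT1KO library. Of these means, mt-Atp8, a gene of 204 bases without a normalized count in any library, made 18453 TPM in ENT1KO and 50912 TPM in WT. In normalized counts, described below, the 7 counted mRNAs do not include mt-Atp8. Their summed WT mean was 2.27 times the ENT1KO mean.

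**Figure D1:**
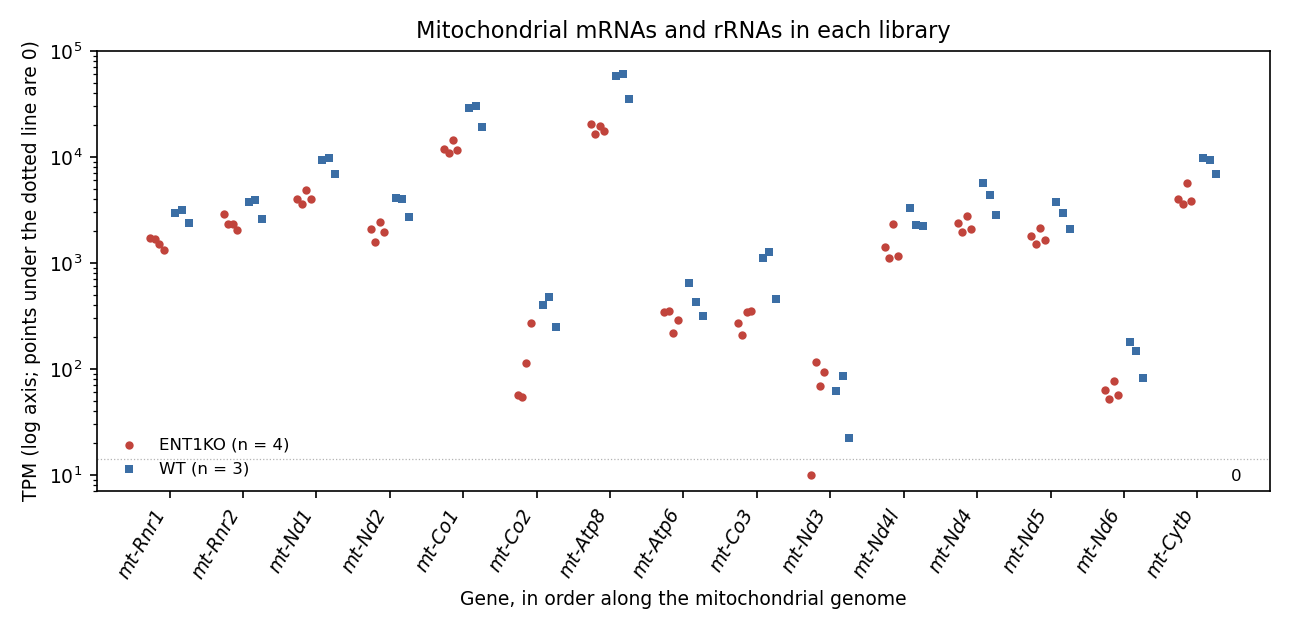
TPM (log axis) of the 13 mitochondrial mRNAs and 2 rRNAs in each library, in genome order, with ENT1KO libraries as circles and WT libraries as squares. For mt-Nd1 the 4 ENT1KO libraries lie between 3599.6 and 4898 TPM and the 3 WT libraries between 6928 and 9789 TPM, while for mt-Nd3 the groups overlap and 1 ENT1KO library is listed at 0.

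Complex I, which takes electrons from NADH, has 7 mitochondrial subunits. mt-Nd1 had 3989, 3599.6, 4898 and 4014 TPM in the ENT1KO libraries, against 9293, 9789 and 6928 TPM in the WT libraries. All ENT1KO libraries were below all WT libraries (log2 difference -1.06, SE 0.15, limma-trend adjusted p = 0.00177), and mt-Nd1 shares no window with a nuclear transcript. mt-Nd2 ranged from 1567 to 2409 TPM in ENT1KO and from 2684 to 4121 TPM in WT (-0.83, adjusted p = 0.00926). mt-Nd4 ranged from 1935 to 2756 TPM in ENT1KO and from 2848 to 5715 TPM in WT, without overlap but with the highest ENT1KO and lowest WT library close to each other (-0.87, adjusted p = 0.0162). mt-Nd5, the longest of the mRNAs, stood at 1788, 1495, 2135 and 1654 TPM in ENT1KO and at 3768, 2924 and 2063 TPM in WT. Here ENT1KO replicate 14 lay above WT replicate 3, so the groups overlapped (-0.69, limma-trend adjusted p = 0.0250). mt-Nd6, the only mRNA read from the light-strand promoter, was the least abundant of the mRNAs that do not share windows with nuclear copies, at 63.3, 52.1, 76.2 and 56.5 TPM in ENT1KO and 180, 146 and 82.3 TPM in WT. It fell by 1.06 on the log2 scale (SE 0.26, adjusted p = 0.0110), a size like that of mt-Nd1 on the other strand, and ENT1KO replicate 14 and WT replicate 3 were again the closest libraries. mt-Nd4l and mt-Nd3 are given with their copies below.

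Complex III and complex IV pass electrons on to cytochrome c and to oxygen. mt-Cytb, the one mitochondrial subunit of complex III, stood at 3955, 3568, 5659 and 3830.3 TPM in ENT1KO and at 9820, 9335 and 6839 TPM in WT (-1.03, SE 0.19, limma-trend adjusted p = 0.00389). The groups did not overlap, and its nuclear look-alike Gm11410 was at 0 to 0.070 TPM. mt-Co1, the catalytic subunit of complex IV, stood at 11710.0, 10768, 14297 and 11572 TPM in ENT1KO and at 28594, 30232 and 18886 TPM in WT. It fell by 1.08 on the log2 scale (SE 0.18, limma-trend adjusted p = 0.00271), with no overlap. In complex V, mt-Atp8 stood at 20478, 16369, 19379 and 17585 TPM in ENT1KO and at 57450.1, 60535 and 34751 TPM in WT. It had the highest TPM of the members and the next to largest fall with copies summed (-1.43, SE 0.20, limma-trend adjusted p = 0.00156), and WT replicate 3 stood apart below the other WT libraries but above every ENT1KO library.

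The mitochondrial ribosome holds 2 rRNAs, and both were lower in ENT1KO. mt-Rnr1 (12S, positions 70 to 1024) stood at 1718, 1661, 1497 and 1333 TPM in ENT1KO and at 2924, 3126 and 2364 TPM in WT. It fell without overlap (log2 difference -0.85, SE 0.14, limma-trend adjusted p = 0.00237). mt-Rnr2 (16S, positions 1094 to 2675) stood at 2897, 2297, 2317 and 2042 TPM in ENT1KO and at 3774, 3873 and 2578 TPM in WT. ENT1KO replicate 11 lay above WT replicate 3, and the fall was the smallest of the called members (-0.50, SE 0.18, limma-trend adjusted p = 0.0443). In an exact two-sided permutation test of the TPM, p was 0.0857 for mt-Rnr2 and 0.0286, the smallest the design allows, for mt-Rnr1. The call of mt-Rnr2 was lost without WT replicate 1, without WT replicate 2, and without ENT1KO replicate 12, 14 or 15, with adjusted p up to 0.148.

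In the members with an identical or nearly identical copy, most of the TPM was listed under the chromosome 1 gene. mt-Co2, the copper-binding subunit of complex IV, stood at 56.5, 54.7, 113 and 272 TPM in ENT1KO and at 398, 475 and 246 TPM in WT, and its copy Gm28661 at 10100 to 12828 TPM in ENT1KO and 17472 to 26220 TPM in WT. The member thus held 0.529% to 2.53% of the TPM of the pair. For mt-Atp6 that share was 1.51% to 4.21%, for mt-Co3 2.33% to 4.56% and for mt-Nd3 0 to 9.35%. It was 33.7% to 49.6% for mt-Nd4l and 68.4% to 78.9% for mt-Co1, and 100% for mt-Nd4, whose copy Gm28439 was listed at 0 TPM in every library. The copy Gm29216 has 492 bases and mt-Co1 has 1545. TPM is corrected for length, so the share and the sums of this pair are not shares or sums of reads. For neither table do the sources used here say how reads with several matching places were treated. All 6 copies that were tested fell, with log2 differences from -1.51 (Gm28437) to -0.77 (Gm10222) in the same fit. Look-alikes with more mismatches carried little TPM. Gm13340, with 37 mismatches over 1545 bases of mt-Co1, was at 1.87 to 3.52 TPM, Gm13341 (mt-Co2) was at 0.28 to 2.03 TPM, and the other 8 with at least 100 aligned bases were at no more than 0.16 TPM.

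**Figure D2:**
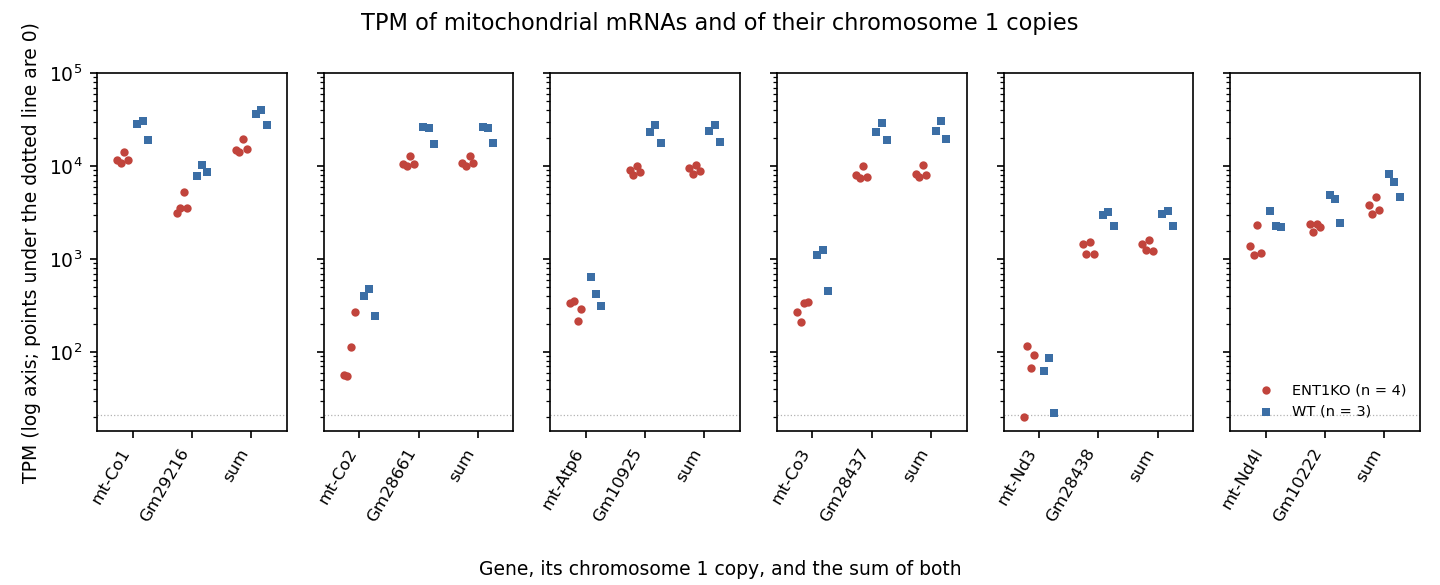
TPM (log axis) of 6 mitochondrial mRNAs, of their chromosome 1 copies and of the sum of both, with ENT1KO libraries as circles and WT libraries as squares. For mt-Co2, mt-Atp6, mt-Co3 and mt-Nd3 the copy lies far above the member in every library, and the sums of these 4 and of mt-Co1 do not overlap between the groups.

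As deposited, these members were the least even. mt-Co3 (complex IV) stood at 268, 210, 340 and 348 TPM in ENT1KO and at 1102, 1254 and 453 TPM in WT (log2 difference -1.58, SE 0.36, limma-trend adjusted p = 0.00872). mt-Co2 overlapped between the groups, since ENT1KO replicate 15 exceeded WT replicate 3 (-1.85, SE 0.55, adjusted p = 0.0257). mt-Atp6 (complex V) stood at 341, 351, 218 and 291 TPM in ENT1KO and at 645, 422 and 317 TPM in WT, which overlap and missed the threshold (-0.58, SE 0.26, adjusted p = 0.0904). mt-Nd4l (complex I) ranged from 1118 to 2325 TPM in ENT1KO and from 2220.2 to 3254 TPM in WT (-0.83, adjusted p = 0.0329), also with overlap. mt-Nd3 was listed at 0 in ENT1KO replicate 11 and had 116, 68.1 and 94.1 TPM in the other ENT1KO libraries, against 61.9, 86.1 and 22.1 TPM in WT. Its fitted difference of -0.76 had an SE of 1.61, and without ENT1KO replicate 11 it turned to 0.87 (adjusted p = 0.191). Calls for mt-Co2, mt-Nd4l, mt-Nd5 and mt-Nd4 were lost when single libraries were left out, with adjusted p up to 0.114, 0.113, 0.0826 and 0.0582. For mt-Co2 these libraries were ENT1KO replicates 11 and 12 and WT replicates 1 and 2, for mt-Nd4l and mt-Nd5 they were the same and ENT1KO replicate 15, and for mt-Nd4 they were WT replicates 1 and 2. Without WT replicate 3 the adjusted p of mt-Atp6 was 0.0266.

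When each member was summed with its chromosome 1 copy, all 15 of 15 fell, beside 23% of 13792 genes called lower and 27.6% higher in that fit. The log2 differences ran from -1.52 (mt-Co3) to -0.50 (mt-Rnr2), with a median of -1.05, and 12 of 15 did not overlap between the groups. In TPM as deposited, 24.9% of all tested genes were lower in ENT1KO without overlap. That share was not computed with copies summed. This sum was chosen after the values were seen. mt-Co2 with its copy stood at 10688, 10155, 12941 and 10761 TPM in ENT1KO and at 26617, 25906 and 17718 TPM in WT. The difference was -1.05 (SE 0.16, limma-trend adjusted p = 0.00211), in place of -1.85 for the member alone. mt-Atp6 with its copy moved the other way, from -0.58 to -1.32 (SE 0.16, adjusted p = 0.00126), and mt-Nd3 with its copy came to -1.05 (SE 0.16, adjusted p = 0.00200). The standard errors of mt-Co2, mt-Co3, mt-Atp6 and mt-Nd3 were thus 0.16 to 0.17 for the sums and 0.26 to 1.61 for the members alone. mt-Nd4l (-0.79, adjusted p = 0.0167), mt-Nd5 and mt-Rnr2 were the members that still overlapped between the groups. On this scale both subunits of complex V and mt-Co3, which are neighbours on the genome, had the largest falls (-1.52 to -1.32). These genes were at 0 in the normalized counts of every library, so this order rests on TPM alone.

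**Figure D3:**
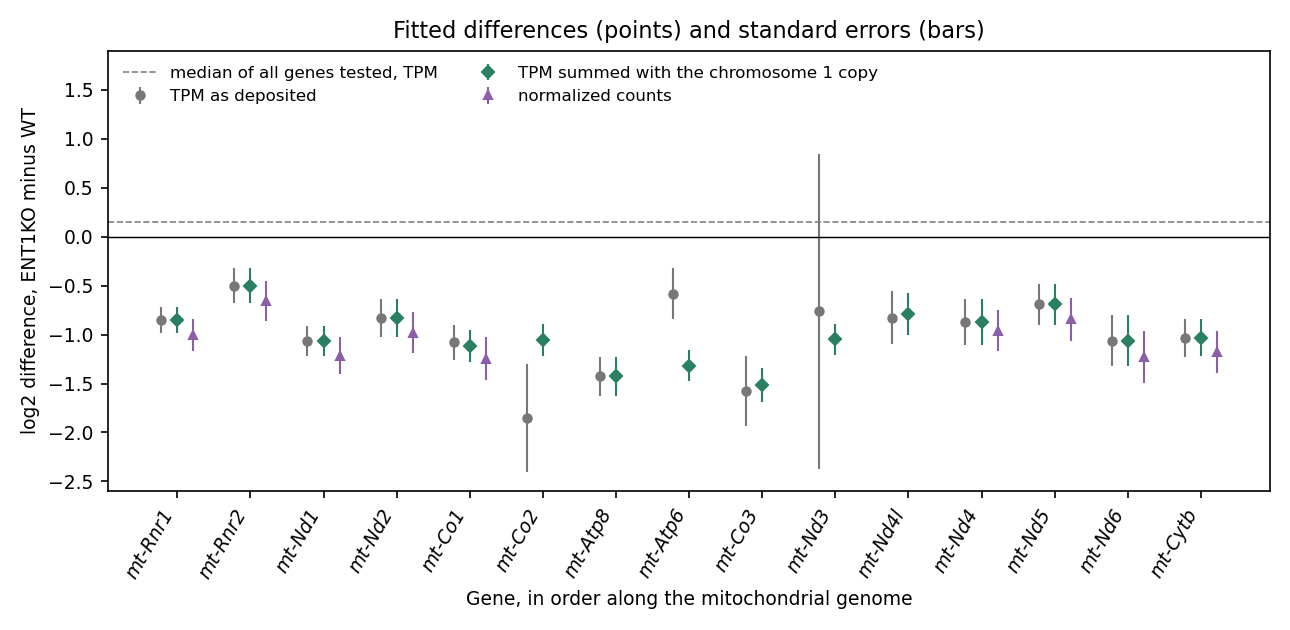
Log2 difference (ENT1KO minus WT) of each mRNA and rRNA, points with standard error bars, for TPM as deposited (circles), TPM summed with the chromosome 1 copy (diamonds) and normalized counts (triangles, where counted and above the floor of 3 reads). With copies summed every point lies between -1.52 and -0.50, below the dashed line at 0.15 that marks the median of all tested genes.

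The table of normalized counts gave another view of the same genes. These are read counts per gene divided by 1 size factor per library, and they are not corrected for length. Here mt-Co2, mt-Atp8, mt-Atp6, mt-Co3 and mt-Nd4l were at 0 in every library, as were 11 tRNAs, while mt-Nd1, mt-Nd2, mt-Co1, mt-Nd4, mt-Nd5, mt-Nd6, mt-Cytb and both rRNAs had counts in every library. All of these 9 fell, of 10 members tested, beside 28.5% of 13483 genes called lower and 21.2% called higher (limma-trend on log2(normalized count + 1)). mt-Co1 stood at 178461, 169611, 221952 and 182230.5 in ENT1KO and at 471773, 575777 and 322315 in WT (log2 difference -1.25, SE 0.22, adjusted p = 0.00493). mt-Nd6 stood at 464, 391, 583 and 440.1 in ENT1KO and at 1449.8, 1307 and 684 in WT (-1.23, SE 0.27, adjusted p = 0.00889). Both were without overlap, and of the 9 only mt-Rnr2 overlapped between the groups. The share of all genes without overlap was not computed on normalized counts. In the authors' deposited table of the same comparison, 17 members had an adjusted p, of which 10 were lower and none higher, beside 25.8% of 18878 genes lower and 16.5% higher. Its log2 fold changes for the 7 mRNAs ran from -1.29 (mt-Nd6) to -0.88 (mt-Nd5), and those of the rRNAs were -1.02 (mt-Rnr1, adjusted p = 1.07e-07) and -0.68 (mt-Rnr2, adjusted p = 0.00431).

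For mt-Nd3 this table listed reads under both the member and its copy. Among the other pairs that held only for mt-Co1, whose copy Gm29216 had a normalized count of 1.91 in ENT1KO replicate 14 and 0 in the other libraries. The steps of the values give 1, 3, 3 and 3 reads for mt-Nd3 in ENT1KO and 0 in each WT library, at or under a floor of 3 reads, so no fold is given although limma called it higher. For Gm28438 they give 3, 2, 12 and 1 reads in ENT1KO and 106, 128 and 60 in WT. In normalized counts Gm28438 stood at 3.05, 1.95, 11.5 and 0.982 in ENT1KO and at 105, 131 and 59.8 in WT, which do not overlap. The authors' deposited table gives a log2 fold change of -4.49 (adjusted p = 7.68e-10), far beyond the -1.10 of the same gene in TPM. The sums of the fibroblast and tumour markers were 68.5, 181, 881 and 6.57 TPM in ENT1KO and 6309, 8024 and 4226 TPM in WT. In both measures WT replicate 2 was highest, ENT1KO replicate 14 was the highest of its group and ENT1KO replicate 15 was the lowest, while ENT1KO replicates 11 and 12 stood in opposite order. The part of those cells was not tested.

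The 22 tRNAs, which carry no poly(A) tail in their mature form, were at 0 TPM in every library. In normalized counts 11 had a value, and their sum was 149 ± 23.9 (SD, n = 4) in ENT1KO and 182 ± 60.7 (SD, n = 3) in WT, with overlap. The most counted were mt-Tw, mt-Tm and mt-Tt. In the order above, mt-Tm (methionine) had 27, 34, 38 and 37 reads in ENT1KO and 59, 75 and 45 in WT, and mt-Tt (threonine) had 57, 31, 42 and 40 reads in ENT1KO and 35, 36 and 27 in WT. These 2 are printed because they lie next to abundant mRNAs, mt-Tm just before mt-Nd2 and mt-Tt just after mt-Cytb, and have different values.
mt-Tm: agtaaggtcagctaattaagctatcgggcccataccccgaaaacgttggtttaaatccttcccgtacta
mt-Tt: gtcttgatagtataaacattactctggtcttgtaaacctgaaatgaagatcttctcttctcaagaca
Of the 8 tRNAs with an adjusted p in the authors' deposited table, mt-Tm alone passed the threshold, with a log2 fold change of -0.85 (adjusted p = 0.0244), and its ENT1KO libraries were all below the WT libraries. mt-Tt stood at 0.35 (adjusted p = 0.466) and mt-Tp, with 3 to 7 reads in ENT1KO and 5 to 19 in WT, at -1.45 (adjusted p = 0.104). mt-Tw had 42 to 62 reads in ENT1KO and 19 to 76 in WT (-0.10, adjusted p = 0.892). mt-Ti and mt-Tq had 3 to 16 reads in a library, and mt-Tl1, mt-Ta, mt-Tc, mt-Ty and mt-Te had 0 to 4. The standard errors of the 8 log2 fold changes in that table were 0.33 to 1.52.

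No ratio between members passed the threshold after adjustment. With mt-Nd1 as the reference, 8 log2 ratios of normalized counts were compared between the groups with exact two-sided permutation tests. The smallest exact p the design allows is 0.0286, so no ratio could pass alone after adjustment over the 8. The missing pass therefore does not show that the ratios were alike. mt-Rnr2 over mt-Nd1 was 0.30, 0.11, -0.31 and -0.22 in ENT1KO and -0.54, -0.57 and -0.66 in WT, so every ENT1KO library was above every WT library (difference 0.56, exact p = 0.0571, 0.171 after Benjamini-Hochberg adjustment over the 8). mt-Nd5 over mt-Nd1 was also without overlap (difference 0.37, exact p = 0.0286, adjusted 0.171). The other 6 ratios overlapped, with differences from -0.03 (mt-Co1) to 0.26 (mt-Nd4). The summed rRNAs made 0.221, 0.208, 0.144 and 0.165 of the 7 counted mRNAs in ENT1KO and 0.132, 0.138 and 0.143 in WT. That ratio was even in WT and spread in ENT1KO, where replicate 14 was close to the WT libraries.

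Per library, the 37 genes held 4.52% to 5.85% of all TPM in ENT1KO and 8.33% to 13.3% in WT. With the 7 copies added the shares were 8.79%, 7.74%, 10.04% and 8.19% in ENT1KO and 21.97%, 23.3% and 15.1% in WT. Of the normalized counts they held 2.24% to 3.08% in ENT1KO and 4.08% to 6.30% in WT. All 3 measures separated the groups, and in all 3 WT replicate 3 was the lowest WT library. The CD8 T cell markers ran the other way, at 9268, 10689.8, 8636 and 9349.7 TPM in ENT1KO and 4229, 2713 and 6517 TPM in WT. WT replicate 3 was thus the WT library with the most CD8 marker TPM and the least mitochondrial and fibroblast and tumour marker TPM. The ratio of the 13 mRNAs with copies to those markers was 6.87 to 11.2 in ENT1KO and 22.4 to 83.3 in WT, and whether the CD8 T cells themselves held less mitochondrial RNA was not tested.

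**Figure D4:**
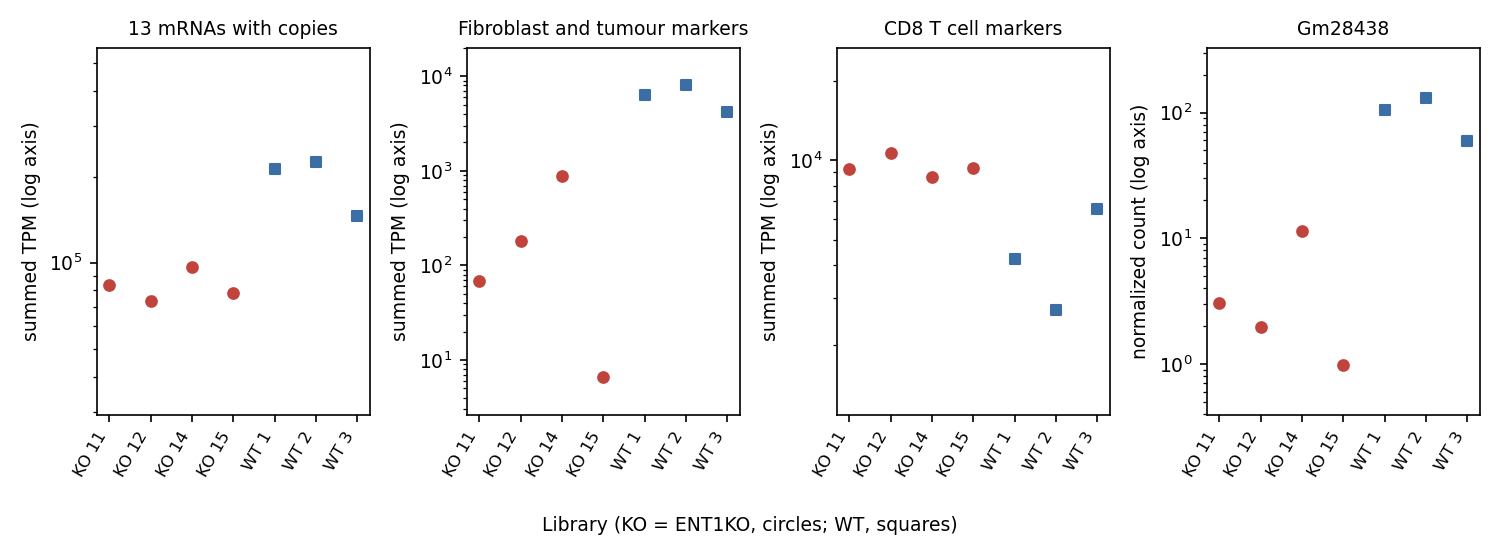
For each library, the summed TPM of the 13 mitochondrial mRNAs with their copies, of the fibroblast and tumour markers and of the CD8 T cell markers, and the normalized count of Gm28438, all on log axes. WT libraries (squares) are above ENT1KO libraries (circles) in the first, second and last panels and below them in the CD8 panel, where WT 2 is lowest at 2713 TPM.

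The nuclear genes of the same complexes overlapped between the groups in their summed TPM. Nuclear subunits of complex I summed to 3666 ± 220.1 TPM (SD, n = 4) in ENT1KO and 3857 ± 148 TPM (SD, n = 3) in WT, where the mitochondrial subunits with copies summed to 15359.9 ± 2387 and 29035 ± 6678 TPM. For complex III the nuclear sums were 1548 ± 72.0 and 1524 ± 26.9 TPM and mt-Cytb was 4253 ± 951 and 8664 ± 1599 TPM. For complex IV they were 3325 ± 246 and 3389 ± 19.8 TPM, beside mitochondrial sums of 35635 ± 4789 and 82990.1 ± 16537 TPM. For complex V they were 4639 ± 157 and 4625 ± 129 TPM, beside 27692 ± 2519 and 74257 ± 18943 TPM. Of these mitochondrial means of complex V, mt-Atp8 made 18453 TPM in ENT1KO and 50912 TPM in WT. In TPM the nuclear sums overlapped between the groups in all 4 complexes and the mitochondrial sums in none. TPM is a share of each library, and mitochondrial genes with copies held means of 8.69% in ENT1KO and 20.1% in WT. That larger share lowers the TPM of all other genes in WT. The nuclear sums were not computed on another scale, so their overlap holds for TPM only. Mitochondrial over nuclear TPM was 6.62, 5.36, 6.99 and 6.23 in ENT1KO and 16.3, 16.7 and 10.7 in WT, a ratio within each library that does not depend on its scaling.

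**Figure D5:**
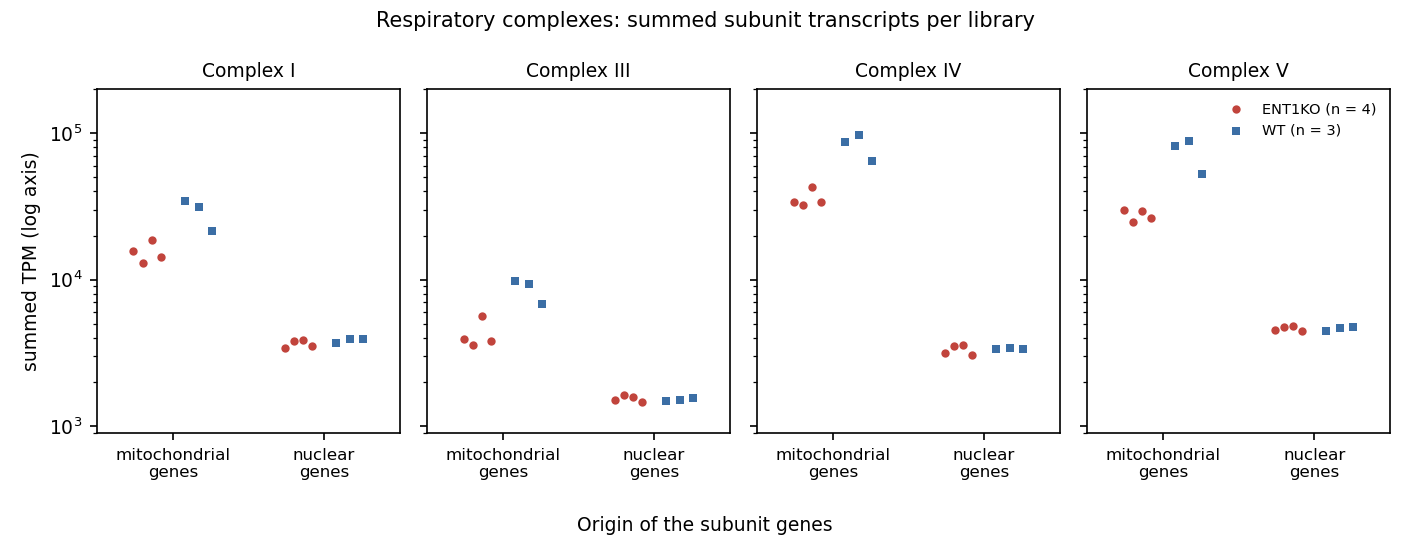
Summed TPM (log axis) of the mitochondrial subunit genes, with chromosome 1 copies, and of the nuclear subunit genes of complexes I, III, IV and V in each library, ENT1KO as circles and WT as squares. In TPM the mitochondrial sums separate the groups in each panel (complex I means 15359.9 and 29035 TPM) and the nuclear sums overlap (3666 and 3857 TPM). The nuclear sums were not computed on another scale.

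Few single nuclear subunits were called in TPM, where 23.1% of all tested genes were lower and 27.5% higher. Of the 37 complex I genes 2 rose and 7 fell (median log2 difference -0.06), of 4 complex II genes 1 fell (-0.13), of 9 complex III genes 1 rose and 1 fell (-0.13), of 11 complex IV genes none was called (-0.04) and of 18 complex V genes 1 rose and 1 fell (0.03). The higher calls of complexes I and III were lost on the 3 other scales tried. On normalized counts 0 rose and 11 fell in complex I and 0 rose and 3 fell in complex III, beside 28.5% of all genes lower. With nuclear TPM set to 1 total 0 rose and 13 fell in complex I and again 0 rose and 3 fell in complex III, and quantile normalization gave the same counts. That nuclear total still included the 7 chromosome 1 copies. They summed to 32215 to 41879 TPM in ENT1KO and 67509 to 100152 TPM in WT, so the scale sets aside only part of the mitochondrial difference. Over all 13798 genes 3567 were lower with nuclear TPM set to 1 total and 3167 under quantile normalization. Of the 18 complex V genes 2 rose and 4 fell on normalized counts. Among the same genes 0 rose and 3 fell with nuclear TPM set to 1 total, and 0 rose and 5 fell under quantile normalization. The complex I accessory subunits Ndufb9 (log2 difference -0.70, limma-trend adjusted p = 0.00370) and Ndufb8 (-0.39, 0.00906) fell, as did the membrane anchor Sdhc of complex II (-0.44, 0.00866), Cyc1, cytochrome c1 of complex III (-0.45, 0.0169), and Atp5if1, the inhibitor of the ATP synthase (-0.68, 0.00301). Uqcrh (0.37, 0.0326) and Atp5pd (0.33, 0.0442) rose. Uqcrh lost the call on the 3 other scales (limma-trend adjusted p from 0.0746 to 0.0961). Atp5pd kept it on normalized counts (0.28, 0.0393). It lost the call with nuclear TPM set to the same total in each library (0.0992) and under quantile normalization (0.160). Uqcrh and Atp5pd, like Sdhc, are among the 2 most abundant subunits of their complex. The other subunits of that rank, Ndufa3, Ndufa6, Sdha, Uqcrb, Cox4i1, Cox7b and Atp5f1b, had log2 differences from -0.18 to 0.27 with no call in TPM. Sdhd (-0.21), Cox5b (0.26) and Cox6c (-0.28) had none in TPM either. Sdhd was called lower on the 3 other scales (limma-trend adjusted p from 0.0128 to 0.0266). Atp5f1b was called lower on normalized counts (0.0453) and under quantile normalization (0.0268). Cox6c was called lower under quantile normalization only (0.0378).

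Other nuclear genes serve the copying, transcription, processing and translation of the mitochondrial genome, and their counts are to be read against 27.5% of all tested genes higher and 23.1% lower in TPM, with a median of 0.15. Of 21 genes for mitochondrial transcription and DNA maintenance 9 rose and 1 fell (median log2 difference 0.39), and 6 rose and 1 fell when nuclear TPM was set to 1 total or normalized counts were used. Polg2, the accessory subunit of the mitochondrial DNA polymerase, rose from 10.5 ± 2.41 TPM (SD, n = 3) in WT to 19.9 ± 2.38 TPM (SD, n = 4) in ENT1KO (log2 difference 0.88, limma-trend adjusted p = 0.00459). Primpol, a primase-polymerase, rose by 0.74 (adjusted p = 0.00501). Tfam, which packages the genome and starts its transcription, stood at 60.5 ± 2.88 TPM in ENT1KO and 46.5 ± 8.51 TPM in WT (0.39, adjusted p = 0.0387), a call lost on the 3 other scales tried (adjusted p from 0.0835 to 0.149). Ssbp1, the single-strand binding protein, missed the threshold (0.36, adjusted p = 0.0527). Of 35 genes for RNA processing, stability and modification 6 rose and 3 fell (median 0.15), a smaller share in each direction than over all genes. On normalized counts 4 of them rose and 5 fell, and with nuclear TPM set to 1 total 2 rose and 4 fell. Of the 3 subunits of mitochondrial RNase P, which cuts the 5′ ends of tRNAs, Trmt10c rose (0.54, adjusted p = 0.0159) and Hsd17b10 fell (-0.39, adjusted p = 0.0387). Mettl17, needed for the small ribosomal subunit, rose (0.98, adjusted p = 0.00385), and Rexo2, an RNA-degrading enzyme, was not called (-0.30, adjusted p = 0.158).

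For translation in the organelle, 3 of 17 factors rose and none fell (median 0.06), also a smaller share than over all genes, and on normalized counts 3 rose and 2 fell. Those higher in TPM included Gfm2 (0.52, adjusted p = 0.0173) and Mtrf1l (0.64, adjusted p = 0.00932), while the elongation factor Tufm (0.06) and Coa3 (-0.28) were not called. Of 22 genes for aminoacyl-tRNA synthesis 4 rose and 2 fell (median 0.28), with Sars2 at 0.55 (adjusted p = 0.00902), Kars1, which also serves the cytosol, at -0.48 (adjusted p = 0.00925) and Lars2 at 0.12 with no call. Of 13 genes for nucleotide supply 3 rose and 3 fell. For both lists the share that rose was below that of all genes. Dguok, which phosphorylates purine deoxynucleosides in the matrix, rose (0.69, adjusted p = 0.00175), Slc25a4, an ADP and ATP carrier, fell (-0.78, adjusted p = 0.00151), and the more abundant carrier Slc25a5 was not called (0.09). Of 10 regulators of mitochondrial biogenesis 9 were tested and 4 rose in TPM, beside 27.5% of all tested genes higher. Among them were Ppargc1b (0.998, adjusted p = 0.00638) and Creb1 (0.77, adjusted p = 0.00258), while Yy1 (0.28) and Myc (0.29) were not called. Only 2 of the 9 rose on normalized counts, where 21.2% of all genes were higher. With nuclear TPM set to 1 total and under quantile normalization 2 of the 9 rose as well. Over all 11 nuclear lists, 33 of 196 tested genes rose and 19 fell in TPM. On normalized counts 26 rose and 36 fell and with nuclear TPM set to 1 total 19 rose and 33 fell, so the balance of directions turned with the scale. For all genes the balance turned as well, from 3800 higher and 3182 lower in TPM to 2858 and 3846 on normalized counts and 2926 and 3567 with nuclear TPM set to 1 total. The median of all genes was 0.15 in TPM and 0.00 on normalized counts, and the median of the tested members lay 1.01 below it in TPM and 0.99 below it on normalized counts. The medians cover different members, 15 in TPM and 10 on normalized counts, where mt-Nd3 with 0 to 3 reads is included.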

How the data were processed

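The 7 libraries (4 ENT1KO, 3 WT, from the sample titles) were analysed from 2 deposited tables. The first holds TPM per gene as the authors deposited it. The second is the authors' comparison of the groups. Its sample columns are a signal, namely the read counts after division by a size factor of the library, as the authors deposited them. It also holds the log2 fold changes with standard errors, a score (the test statistic) and p-values as the authors deposited them. Per the submitters' processing notes, which state no roles, the authors used the build GRCm39 and the tools RSEM, STAR 2.7.1a, DESeq, DESeq2 1.30.1 and Trimmomatic 0.38 and 0.35. The sources used here give neither the annotation release nor how reads with several matching places were handled.

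Every normalized count was a whole multiple of its column's smallest value (100% within 0.01), which gave the depth. In WT replicates 1 and 3 that step is near 1, so whole reads were not proven and no count test was run. The test was limma-trend, for genes that reached 1 TPM in 3 or more samples (limma 3.58.1, R 4.3.3, robust empirical Bayes), on log2(TPM + 1), with Benjamini-Hochberg adjustment over all 13798. This scale understates changes of low genes. It was tested on simulated data. For single values an exact permutation test, two-sided, went through the 35 ways to label the libraries and cannot give less than 0.0286. Members were matched to nuclear transcripts with BLAST+ 2.17.0 (identity at least 90%).

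Alternatives were pseudocounts of 0.1 and 5, filters of any value above 0 and of 5 TPM in 3 samples, quantile normalization, normalized counts, nuclear TPM set to 1 total, array weights, the authors' values, leaving out each library and, chosen after the values were seen, sums with the chromosome 1 copies. The nuclear total included the 7 chromosome 1 copies. All mt- genes with a value are described. Of each nuclear list the 2 tested genes with the smallest p and the 2 most abundant are named, and copies of at least 1 TPM. All 197 listed nuclear genes matched a symbol. Members and lists were chosen with earlier results of these data known. Plots are from matplotlib 3.10.9 (Python 3.11.15).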

Additional observations from a re-analysis of the deposited data

Results flagged for a closer look

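Among 47 groups of ENT1KO values, of TPM or normalized counts of single members, 3 held a library far from the other 3 of its group, and chance alone gives about 1 in 20. mt-Cytb had a normalized count of 89649 in ENT1KO replicate 14, where the other ENT1KO libraries had 57630.5 to 62325. WT libraries had 117613 to 179636, so ENT1KO replicate 14 lay nearest to WT, and in that library the fibroblast and tumour markers were at 881 TPM, the highest of its group. The rest of the group was not in the same order. Replicate 15 had the lowest markers (6.57 TPM) and 62325 for mt-Cytb, while replicate 12 had 181 TPM and 57630.5. The part of those cells was not tested. mt-Nd3 had a normalized count of 1.02 in ENT1KO replicate 11, where the other 3 had 2.87 to 2.95, a difference of 1 read against 3. mt-Tc had a normalized count of 0.975 in ENT1KO replicate 12 and 0 in the other 3, which is 1 read.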

How the results depend on the processing

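No paired analysis was possible because the replicate numbers of the ENT1KO samples (11, 12, 14 and 15) and of the WT samples (1, 2 and 3) share no value. The calls of mt-Rnr1, mt-Nd1, mt-Nd2, mt-Nd6 and mt-Cytb held under every alternative run. Under quantile normalization mt-Co1 (-0.06, adjusted p = 0.517) and mt-Atp8 (0, adjusted p = 1) lost the call, since that step gives the most abundant genes the same value in every library. With the filter of any value above 0, more genes were tested and the adjusted p of mt-Rnr2 was 0.0788 and that of mt-Nd4l 0.0622. With array weights the adjusted p of mt-Atp6 was 0.0224.

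The fitted difference of mt-Nd3 reversed to 1.73 on normalized counts (0 to 3 reads), where 1 member was thereby called higher, and to 0.87 without ENT1KO replicate 11, the top of a leave-one-out range that starts at -1.42. Nuclear list genes called higher numbered 33, with 17 under the filter of any value above 0 and 19 with nuclear TPM set to 1 total. Those called lower numbered 19, with 36 under quantile normalization, 36 on normalized counts, 33 with nuclear TPM set to 1 total and 37 in the authors' deposited table, where 4877 of all genes were lower. Leaving out 1 library at a time, members called lower numbered 8 (without WT replicate 1 or WT replicate 2) to 14, and 0 were called higher. Without a library, the median difference of members ran from -1.19 (without WT replicate 3) to -0.82. List genes called higher then numbered 13 to 30 and those called lower 8 to 23, with the fewest of both without WT replicate 2. All genes called higher numbered 2315 to 3748 and all genes called lower 2525 to 3145, the fewest of both also without WT replicate 2. The 22 tRNAs had at most 76 reads in a library, and counts of that size carry a wide counting error.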
